A study of Mus musculus with 62 samples.

Results

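Disome-seq and Ribo-seq of the WT mouse heart were set side by side for 639 of the 10700 genes in the table of counts, to describe which mRNAs carried more or fewer disomes than their footprints would give. The 639 genes were those with a mean of at least 10 Disome-seq counts over the 4 WT replicate numbers, with the 2 columns of each number summed and 1 transcript taken per gene. Ribo-seq played no part in this minimum. A gene with few footprints could therefore enter only if its disomes were many, and 15 of the 639 genes had a mean Ribo-seq count under 50, 2 of them under 10. Numbers of genes called over the 639 are for this reason a description. Kinds of protein were compared over the 3242 genes with a mean Ribo-seq count of at least 50 and no minimum of disomes, and lists of genes are given over the 639 genes and over these 3242. The 639 genes held 73.4% of the WT Disome-seq counts and 60.5% of the WT Ribo-seq counts. Just inside the minimum lay 40 genes with means of 10 to 10.75 disomes, such as *Tmem143*, and just outside it 68 genes with means of 9 to 9.75, such as *Sf3b4*.

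Hearts came from male C57BL/6J mice at 10 weeks of age, either WT (*Rpl3l*+/+) or *Rpl3l* KO, in which exon 2 of *Rpl3l* had been deleted with CRISPR-Cas9. The gene encodes RPL3L, a ribosomal protein of heart and skeletal muscle that takes the place of RPL3 in the ribosome. Each genotype had 4 replicates in each assay, and the study worked with 4 mice per genotype, but the sources used here do not say that a number stands for the same mouse in both assays. *Rpl3l* KO hearts served here only as further hearts in which the same ratio could be measured. Their Ribo-seq libraries held 21 to 45 CPM of *Rpl3l*, against 928 to 999 in the WT libraries.

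A translating ribosome shields a short stretch of mRNA from RNase I, and Ribo-seq sequences these footprints, here of 17 to 34 nt. When a ribosome halts and the next one runs into it, the pair shields a longer stretch, and Disome-seq sequences such fragments, here of 50 to 80 nt. Collided ribosomes are known to be sensed by quality control factors that split them and mark the unfinished protein for decay, while some disomes form at sites where ribosomes pause as a matter of course, such as stop codons. In heart muscle the most translated mRNAs encode contractile and mitochondrial proteins. A disome fragment is counted by gene here, without its place on the mRNA.

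The libraries were shallow in one assay and deep in the other. Summed Disome-seq libraries held 18885 to 70266 counts and Ribo-seq libraries 865971 to 1470877, and this sets the precision of every ratio. The values below are the log2 ratio of disomes to footprints from the quasi-likelihood test of edgeR, and CPM are counts scaled by TMM to a common total over the 639 genes. The ratio is relative: after TMM scaling a value of 0 marks the typical gene of the set that was fitted, not equal shares of all counts. *Mybpc3*, for example, held a mean of 1.11% of Disome-seq counts and 1.04% of Ribo-seq counts, and had a ratio of −0.10. More or fewer disomes below is meant against this typical gene. A drop or rise common to all genes cannot be seen. A gene was called at an adjusted p-value under 0.05 (Benjamini-Hochberg over all 639 genes, two-sided).

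The 2 columns of a Disome-seq number, called run 1 and run 2 here after their labels, did not always hold the same mRNAs. C2C12 is a line of mouse myoblasts that was profiled in the same study. The 402 genes with footprints at least 8 times higher in control C2C12 cells than in the WT heart held 17.9% ± 0.55 (SD, n = 3) of counts in C2C12 Ribo-seq and 1.08% ± 0.03 (SD, n = 4) in WT heart Ribo-seq. In run 1 of WT Disome-seq they held 14.7%, 5.21%, 2.72% and 8.10% of counts in numbers 1 to 4, and in run 2 they held 1.06%, 1.27%, 0.903% and 4.12%. *Spp1*, which encodes the secreted protein osteopontin and lay 351-fold higher in C2C12 than in heart footprints, had 179, 14, 20 and 22 counts in run 1 and 1, 2, 0 and 11 in run 2. In KO hearts the share of the 402 genes was 3.83% to 9.25% in run 1 and 1.12% to 2.01% in run 2. Where these counts came from was not tested. The runs of all 4 WT numbers differed in this share by more than sampling noise, with p of at most 9.45e-31 in Fisher's exact test of the counts. Over single genes with at least 20 counts, the chi-square per degree of freedom between the runs was 13.4 in WT number 1 and 0.791, 0.706 and 0.981 in numbers 2, 3 and 4, and in KO numbers 1 to 4 it was 1.74, 0.962, 2.21 and 2.67. Both runs were counted as 1 replicate, and values for run 2 alone are set beside those of the summed runs.

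**Figure D1:**
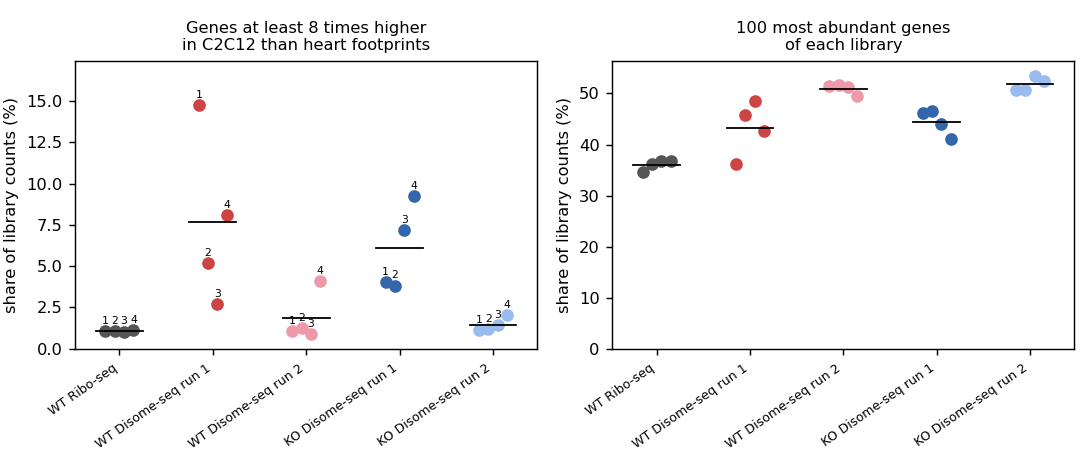
Share of counts (%) in single libraries of WT Ribo-seq and of both runs of WT and KO Disome-seq. Points are libraries, with replicate numbers 1 to 4 printed in the left panel, and bars are means of 4. In the left panel, the 402 genes that were at least 8 times higher in C2C12 than in heart footprints took 14.7% of WT run 1 of number 1, against 1.06% in its run 2. In the right panel, the 100 most abundant genes of a library took more counts in every Disome-seq run 2 library than in any Ribo-seq library.

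In the summed runs 144 genes (22.5% of 639) had more disomes for their footprints than the typical gene, and 125 (19.6%) had fewer. In either direction 269 genes (42.1%) were called. With a change of at least 2-fold asked for as well, 101 genes (15.8%) were higher and 58 (9.08%) lower. In run 2 alone 98 genes (15.3%) were higher and 120 (18.8%) lower, 218 in either direction (34.1%), with 50 (7.82%) higher and 64 (10%) lower by at least 2-fold. The calls shared by the summed runs and run 2, which have counts in common, were 74 higher (11.6%) and 101 lower (15.8%), and 1 gene was called in opposite directions. Of the 144 genes called higher, 75 had footprints at least 4 times higher in C2C12 cells than in the heart, and of these 75 only 13 were also called higher in run 2. None of the 125 genes called lower had such a level in C2C12 cells. The middle of the 639 ratios was 0.06 in the summed runs and −0.04 in run 2. Over the 3242 genes chosen by Ribo-seq, 243 (7.5%) were higher and 531 (16.4%) lower, with a median ratio of −0.41, and in run 2 144 (4.44%) were higher and 619 (19.1%) lower, with a median of −0.73. The 3242 genes were fitted anew with their own TMM factors. The zero of the ratio moved with this, so that the same gene has different ratios in the fits. Counts of a list below are to be read against the shares of its own set of genes.

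Reads that fit several places were kept by the authors, and this touched the higher calls more than the lower ones. The coding sequence of each gene was cut into words of 28 bases, which were sought in the transcripts of other genes. Untranslated regions of the gene itself were left out. Over 10% of these words were found in another gene for 227 of the 639 genes, for 35 of the 74 genes higher in both and for 11 of the 101 genes lower in both. Values of such genes, many of them with processed pseudogenes, are uncertain, since counts can move between copies. Disome fragments are longer than Ribo-seq footprints, and the part of this in the ratios was not tested.

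**Figure D2:**
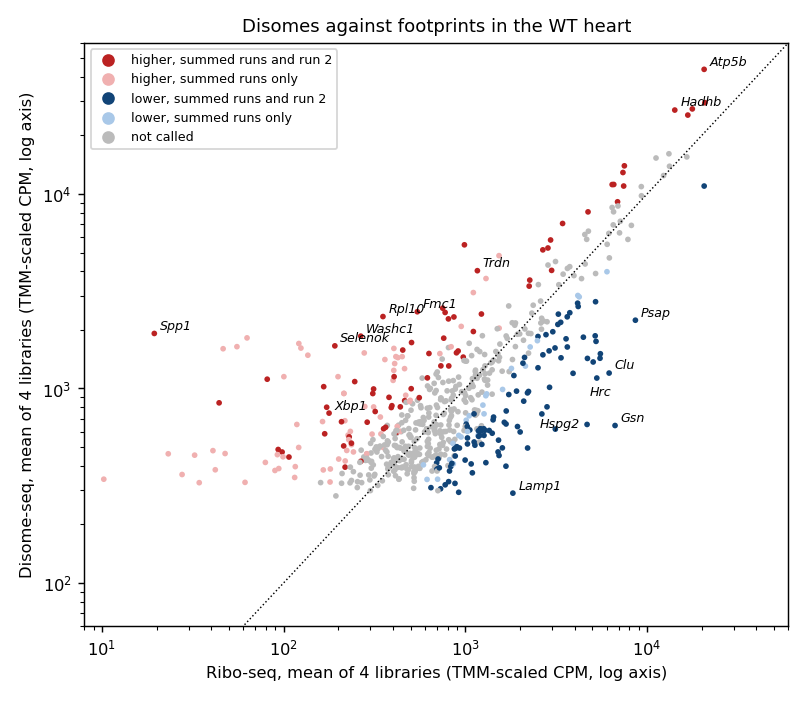
Mean TMM-scaled CPM of Disome-seq (vertical, log axis) against Ribo-seq (horizontal, log axis) for the WT heart, means of 4 libraries each, 1 point per gene. The dotted line marks equal values, dark red and dark blue points are the 74 and 101 genes called in the summed runs and in run 2, and *Olfr1359*, with a Ribo-seq mean of 0.25 counts, lies outside the frame. *Selenok* and *Washc1* sit far above the line, *Gsn* and *Hspg2* far below it, and pale red points crowd where footprints are few.

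Several of the mRNAs with known events in elongation or termination were among the genes. A selenoprotein mRNA reads a UGA codon as selenocysteine, and the position of this codon differs between members. The following runs show the codon in capitals with its neighbours for the 5 selenoproteins among the 639 genes, read from the GRCm38 genome on the plus strand with GENCODE M21 frames, since the ratios of the 5 ran from 3.06 to −1.48.
Selenok: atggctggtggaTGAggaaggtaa
Txnrd1: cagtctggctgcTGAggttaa
Selenop: cttcaagccagcTGAtacttgtgtctt
Gpx4: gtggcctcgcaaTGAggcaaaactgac
Gpx3: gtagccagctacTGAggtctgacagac

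In *Selenok* the capitals lie at chr14:29973440-29973442 and are codon 92 of 94, and in *Txnrd1* they lie at chr10:82896037-82896039 and are codon 612 of 613. The printed runs of these genes end with their stop codon. In *Gpx4* the codon lies at chr10:80054737-80054739 and is codon 73 of 197, and in *Gpx3* at chr11:54907256-54907258 and is codon 73 of 226. *Selenop* has 10 such codons, of which the printed one, at chr15:3274848-3274850, is codon 59 of 380.

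*Selenok* (chromosome 14, 29968308 to 29975662), which encodes a small selenoprotein of the endoplasmic reticulum, had 1033, 1794, 1774 and 2025 CPM in the WT Disome-seq libraries and 219, 184, 161 and 203 CPM in the Ribo-seq libraries. All 4 disome values stood above all footprint values. The log2 ratio was 3.06 ± 0.24 (SE, adjusted p = 2.42e-05), or 8.36-fold, it was 3.24 in run 2 and 2.99 in KO hearts, and 82.9% of the 28-base words of the coding sequence occur in another gene. *Txnrd1*, a cytosolic thioredoxin reductase, was higher by 1.31 ± 0.30 (SE, adjusted p = 0.00563) and by 1.06 in run 2, but had 0.13 (adjusted p = 0.749) once the trend with footprint level had been removed. It lay 7.12-fold higher in C2C12 than in heart footprints, and its ratio in KO hearts was 0.57 (adjusted p = 0.0978).

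The glutathione peroxidases lay on the other side. *Gpx4*, which reduces lipid peroxides, had 815, 1076, 901 and 1085 CPM in Disome-seq and 1777, 1729, 2228 and 1920 CPM in Ribo-seq, with no overlap. Its log2 ratio was −1.03 ± 0.16 (SE, adjusted p = 0.000774), it was −1.16 in run 2, and 84.5% of its words are shared with another gene. *Gpx3*, the secreted form, fell by 1.48 on the log2 scale (SE 0.23), and by 1.11 in run 2. *Selenop*, which carries selenium in plasma, had a ratio of −0.31 that did not pass the test (adjusted p = 0.361). In all, 2 of the 5 selenoproteins were higher and 2 lower, in the summed runs as in run 2. Of the 15 with a mean Ribo-seq count of at least 50, 3 were higher and 2 lower, again in both sets of runs. The table by gene does not show whether the disomes lay at these codons.

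Of the list of programmed elongation events, which was made up of mRNAs with a described ribosome arrest or frameshift, 2 were among the 639 genes and both were higher. *Xbp1*, with a mean of 18 disomes and 128.75 footprints, entered through its many disomes. Of the 4 members with a mean Ribo-seq count of at least 50, 2 were higher, in the summed runs as in run 2. *Xbp1*, a transcription factor of the unfolded protein response whose nascent chain halts its own ribosome, had 636, 1292, 338 and 723 CPM of disomes against 211, 202, 118 and 180 CPM of footprints. Each Disome-seq library stood above every Ribo-seq library. The log2 ratio was 1.93 ± 0.37 (SE, adjusted p = 0.00251), 2.20 in run 2 and 1.97 in KO hearts, and it rests on 32, 18, 12 and 10 counts. *Oaz1*, antizyme, which is made by a frameshift that polyamines promote, was higher by 1.28 ± 0.15 (SE, adjusted p = 0.000212), by 1.46 in run 2 and by 1.15 in KO hearts. Of its words, 91.6% occur in another gene.

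Genes with a ratio as large were found outside these lists too. *Washc1* encodes a subunit of the WASH complex, which nucleates actin on endosomes. It had 954, 2440, 1436 and 2603 CPM of disomes and 256, 290, 239 and 279 CPM of footprints. With no word of its coding sequence shared with another gene, its ratio was 2.72 ± 0.31 (SE, adjusted p = 0.000147), 2.86 in run 2 and 2.01 in KO hearts. *Trdn* encodes triadin, a membrane protein that ties calsequestrin to the ryanodine receptor at the junction of the sarcoplasmic reticulum. Its disomes came to 3259, 6602, 3238 and 3037 CPM and its footprints to 1226, 1180, 1096 and 1159 CPM, far apart in each library. The ratio was 1.76 ± 0.24 (SE, adjusted p = 0.000331), 2.04 in run 2 and 2.02 in KO hearts.

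Chosen after their values had been seen, 5 further genes had similar ratios in both sets of runs. *Fmc1*, an assembly factor of mitochondrial ATP synthase, was higher by 2.15 ± 0.21 (SE) with 1550 to 2901 CPM of disomes against 454 to 601 CPM of footprints. *Gng11*, a G protein gamma subunit, was higher by 2.17 ± 0.21 (SE), *Naa20*, a subunit of an N-terminal acetyltransferase, by 2.04 ± 0.33 (SE), and *Kbtbd3* by 2.00 ± 0.35 (SE). In run 2 these 4 ratios were 2.38, 2.52, 2.15 and 2.22, and in KO hearts they were 2.43, 2.90, 1.73 and 2.17. Of the words of *Naa20*, 65.4% occur in another gene. *Sspo*, which encodes SCO-spondin, a large secreted protein of the brain, had few footprints, 36.8 to 48.4 CPM, and 437 to 1229 CPM of disomes, a ratio of 4.13 and of 4.16 in run 2.

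The naming rule also brought up genes that were not called in run 2. Of the 10 highest ratios it named, 6 belonged to the histone genes *Hist2h3c1*, *Hist1h3b*, *Hist1h3d*, *Hist1h3f* and *Hist1h4m* and to *Lgals3*, which encodes galectin-3. These histone genes share 85.4% to 100% of their words with another gene. *Hist1h3b* and *Hist1h3d* each had 191 counts in Disome-seq number 1. Since reads that fit several places were kept, the histone genes cannot be taken as separate observations. *Lgals3* had 2245, 861, 338 and 1157 CPM of disomes and 85.2 to 130 CPM of footprints, a ratio of 3.59, and lay 51.7-fold higher in C2C12 than in heart footprints. In run 2 its ratio was −0.38 and did not pass the test. *Hist2h3c1*, 76.8-fold higher in C2C12 footprints, had a ratio of 4.91 in the summed runs, with 189 of its 194 disome counts in number 1 from run 1, and one of 2.14 in run 2 (adjusted p = 0.0941). *Hist1h3g*, a histone gene outside the naming rule that was picked after its values had been seen, was called in both, at 3.92 and at 1.81 in run 2 (adjusted p = 0.0275), and lay 37.6-fold higher in C2C12 footprints. The histone list, which does not hold the histone genes named above, had 8 members among the 639. Of the 8, 7 were called higher in the summed runs by edgeR and by DESeq2 and 0 in run 2, where 0 had an unadjusted p under 0.05, with medians of 1.93 and −0.14. Of 9 members with a mean Ribo-seq count of at least 50, 8 were higher in the summed runs and 0 in run 2 by edgeR (1 at an unadjusted p under 0.05).

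Cytosolic ribosomal protein genes went the same way in part. Of 41 members 16 were called higher and 0 lower by edgeR in the summed runs, with a median of 0.85 (21 and 0 by DESeq2, 24 and 0 at an unadjusted p under 0.05), and 7 higher and 1 lower in run 2, with a median of 0.21. Over 44 members with a mean Ribo-seq count of at least 50 33 were higher (75%) in the summed runs and 14 (31.8%) in run 2. The zero lies elsewhere in that fit, with medians of 1.19 and 0.33. Of these 41 genes, 27 had footprints at least 4 times higher in C2C12 cells and 38 shared over 10% of their words with another gene. The 7 that were higher in both were *Rpl10*, *Rpl31*, *Rpl7a*, *Rpl27*, *Rpsa*, *Rpl19* and *Rpl38*, with summed ratios from 1.27 to 2.65, and each of them shares at least 96.4% of its words. *Rpl10*, a protein of the large subunit, had 1709, 3301, 1183 and 3182 CPM of disomes and 287 to 483 CPM of footprints. *Rpl3l* itself had a ratio of 0.11 ± 0.29 (SE, adjusted p = 0.784) and of −0.38 in run 2, and 75 of its 85 disome counts in WT number 1 stood in run 1. In KO Disome-seq it had 2, 5 and 12 counts in run 1 of numbers 2, 3 and 4, and 2, 1 and 2 in run 2, with 0 in number 1.

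**Figure D3:**
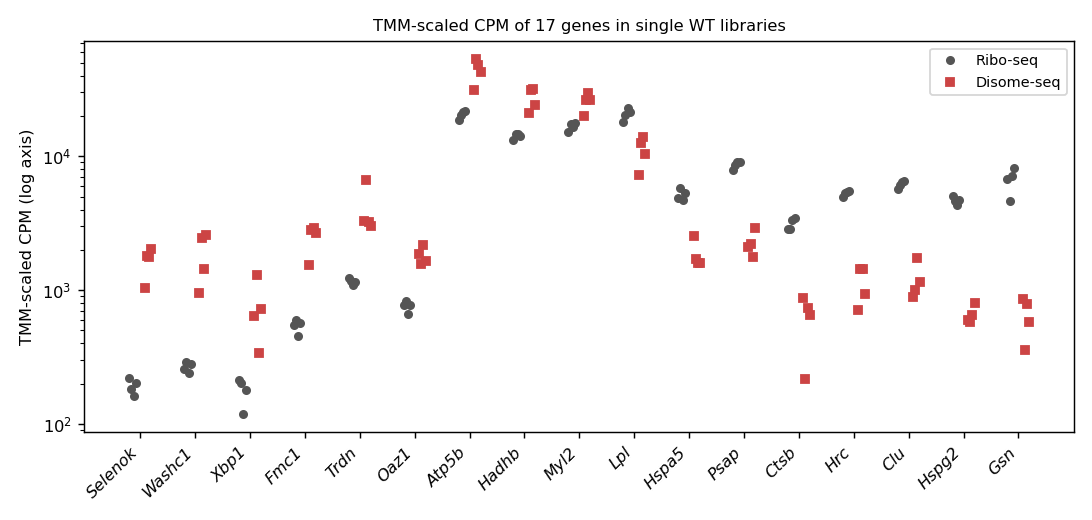
TMM-scaled CPM (log axis) of 17 genes in single WT libraries, with 4 Ribo-seq libraries as grey circles and 4 Disome-seq libraries as red squares per gene. From *Selenok* to *Myl2* the disome values of a gene stand above its footprint values, and from *Lpl* to *Gsn* they stand below, without overlap.

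The mRNAs with the fewest disomes for their footprints mostly encoded proteins made at the endoplasmic reticulum. *Gsn* (chromosome 2, 35282380 to 35307892) encodes gelsolin, which severs actin filaments and has a secreted form. It had 854, 359, 789 and 578 CPM of disomes and 6769, 4641, 7108 and 8154 CPM of footprints. The ratio was −3.25 ± 0.26 (SE, adjusted p = 2.42e-05), that is 9.49-fold lower, and was −3.15 in run 2 and −3.55 in KO hearts. *Hspg2*, which encodes the basement membrane proteoglycan perlecan, had 596, 574, 648 and 795 CPM of disomes against 4325 to 5056 CPM of footprints. Its ratio was −2.87 ± 0.16 (SE), −3.03 in run 2 and −3.21 in KO hearts.

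Further down this end stood proteins of the secretory path, of lysosomes and of the cell surface. *Clu*, the secreted chaperone clusterin, had a ratio of −2.35 ± 0.21 (SE), and *Col4a2*, a chain of basement membrane collagen, of −2.33 ± 0.25 (SE). Among lysosomal proteins, *Ctsb*, the protease cathepsin B, had −2.20 ± 0.25 (SE), *Psap*, the precursor of the saposins, −1.98 ± 0.16 (SE), and *Lamp1*, a glycoprotein of the lysosomal membrane, −2.34 ± 0.38 (SE). *Lamp1* had 31, 0, 9 and 4 disome counts, and without number 1 its ratio was −3.16. *Tm9sf2*, a protein with many membrane spans, had −1.97 ± 0.22 (SE). In run 2 these 6 ratios lay between −3.42 and −2.0, and every one was called there and in KO hearts.

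To put this on the scale of all mRNAs, the coded proteins were sorted by hydrophobic stretches. A hydrophobic N-terminus was scored where a window of 12 residues within the first 35 had a mean hydropathy of at least 2.0, as signal peptides and signal anchors tend to, and an internal hydrophobic segment where a window of 19 residues further on had at least 1.9. This sorting was chosen after the ratios of single genes had been seen, and it carries no test. Of the 3242 genes with a mean Ribo-seq count of at least 50, 472 had a hydrophobic N-terminus. They took 16.6% of footprints and 8.69% of disomes. Their share of disomes was 0.524 ± 0.023 (SD, n = 4) times their share of footprints, from 0.501 to 0.549 in single libraries. The quotient was 0.522 ± 0.033 in run 2 and 0.568 ± 0.098 in KO hearts (SD, n = 4 each). Of the 472 genes, 180 (38.1%) were called lower and 8 (1.69%) higher, and in run 2 207 were lower and 6 higher, where 619 of the 3242 genes (19.1%) were lower and 144 (4.44%) higher.

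Proteins with only an internal hydrophobic segment lay between. Their 328 genes had a quotient of 0.794 ± 0.034 (SD, n = 4) and 0.780 in run 2, with 85 genes lower and 7 higher. The 2351 genes with neither feature had 1.13 ± 0.01 (SD, n = 4), with 241 lower (10.3%) and 227 higher (9.66%). Sorted further into 5 bins of equal size by footprints per kilobase, the genes with a hydrophobic N-terminus had quotients of 0.44 to 0.55 in each bin and those with neither feature 0.69 to 1.26, so that the order held at every level of translation.

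Within the 639 genes, 37 of the 66 with a hydrophobic N-terminus were lower (56.1%) and 7 higher, with a median of −0.87. In run 2, 36 were lower and 6 higher, and in KO hearts 32 were lower and 8 higher. Of the 7 that were higher, *Olfr1359*, *Spp1*, *Igfbp2*, *Sspo* and *Timp1* had a mean Ribo-seq count under 50, and *Spp1*, *Igfbp2*, *Timp1* and *Emp1* lay at least 14.1-fold higher in C2C12 than in heart footprints. *Atp6v0e*, a small membrane subunit of the vacuolar proton pump, had neither mark, with 310 to 868 CPM of disomes, 154 to 188 CPM of footprints and a ratio of 1.67 ± 0.30 (SE, adjusted p = 0.0017).

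Not every mRNA of the endoplasmic reticulum was low. *Casq2*, calsequestrin, the calcium buffer of the sarcoplasmic reticulum, had 2762, 3731, 4872 and 3326 CPM of disomes and 4298 to 4454 CPM of footprints. The groups overlapped, and its ratio of −0.25 ± 0.17 (SE) did not pass the test. *Lpl*, lipoprotein lipase, which muscle cells secrete, was lower by less than most, at −0.91 ± 0.19 (SE, adjusted p = 0.00415).

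Many low genes are made by other cells of the heart than muscle cells, and this moved with the result. Of 12 fibroblast markers on the list 5 were among the 639 genes, and all 5 were lower (*Gsn*, *Dcn*, *Col1a1*, *Col3a1* and *Col1a2*). Of the 11 with a mean Ribo-seq count of at least 50, 9 were lower. Over the 3242 genes they held 0.373% of disomes, from 0.30% to 0.47% in single libraries, and 1.29% of footprints, from 1.16% to 1.41%. The 3 blood markers of this set held 0.228% of disomes and 0.744% of footprints, and both alpha globin genes were lower. These 2 genes share 94.0% and 93.0% of their words with another gene, so they cannot be taken as separate observations. Their protein has no hydrophobic N-terminus. The endothelial marker *Aqp1* and the immune marker *Cd74* were lower as well. Cardiomyocyte markers, in contrast, held 10.3% of disomes and 7.43% of footprints, with 2 of 12 members higher and 1 lower in the summed runs, and 5 higher and 0 lower by edgeR in run 2 (7 and 0 at an unadjusted p under 0.05). Without the matrix genes and the markers of other cell types, 431 genes with a hydrophobic N-terminus had a quotient of 0.569 ± 0.021 (SD, n = 4). Genes of other cells that are on no list can remain among the 431. On the lists of calcium handling, sarcomere and cardiomyocyte markers were 9 genes with a hydrophobic N-terminus. Their quotient was 0.828 ± 0.150, from 0.646 to 1.01, and 0.954 ± 0.261 in run 2 (SD, n = 4 each). In KO hearts it was 1.08 ± 0.368, from 0.764 to 1.59, and 1.17 ± 0.365 in KO run 2 (SD, n = 4 each), so that a low quotient was not seen there. For the other genes of this class, the cell of origin of a disome cannot be told apart from the kind of protein in whole hearts, nor can fewer cells of a type be told apart from less RNA per cell.

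**Figure D4:**
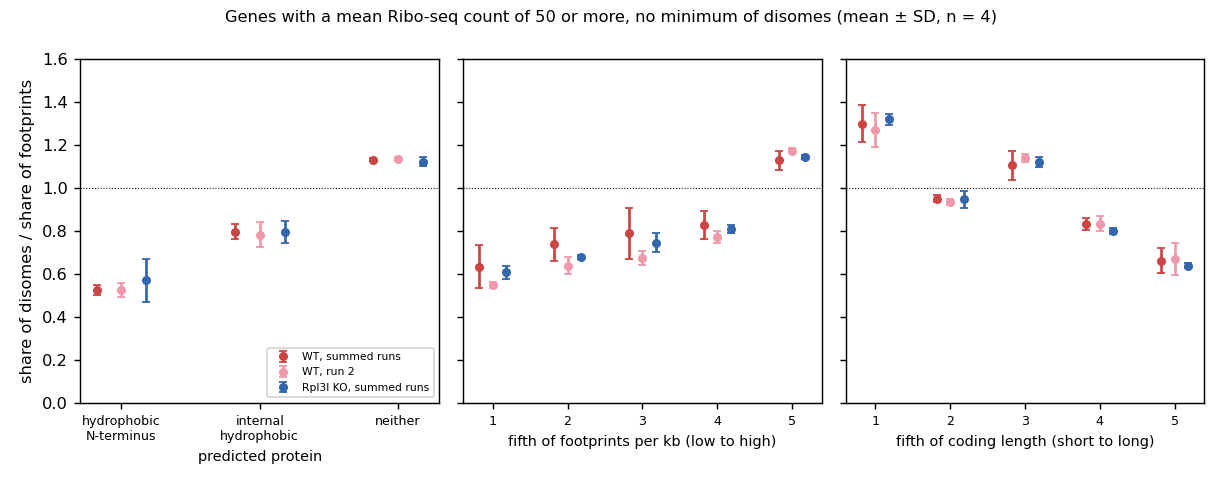
Share of disomes divided by share of footprints (mean ± SD of 4 Disome-seq libraries, axis from 0) for genes with a mean Ribo-seq count of at least 50, by kind of protein and by footprints per kilobase and coding length in 5 bins of equal size from low to high. Red is WT with summed runs, pink WT run 2 and blue *Rpl3l* KO, and the dotted line marks equal shares. The genes with a hydrophobic N-terminus lie at 0.524, those with neither feature at 1.13, and the shortest coding sequences lie highest.

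Calcium handling genes, which set the heartbeat through the sarcoplasmic reticulum, went both ways, and not by hydrophobic N-terminus alone. Of 9 members 1 was higher (11.1%), *Trdn*, and 4 were lower (44.4%), with a median of −0.25, and in run 2 2 were higher and 4 lower. Of 19 members with a mean Ribo-seq count of at least 50, 2 were higher and 7 lower (36.8%). *Casq2* and *Sln*, the pump regulator sarcolipin, have such an N-terminus and were not called, at −0.25 and −0.15. *Hrc*, a histidine-rich calcium binding protein in the lumen of the sarcoplasmic reticulum, had 715, 1435, 1436 and 940 CPM of disomes and 4966 to 5477 CPM of footprints. Its ratio was −2.26 ± 0.22 (SE, adjusted p = 6.04e-05) and −2.08 in run 2. *Tmem38a*, a potassium channel of the same membrane, had −1.90 ± 0.27 (SE) and *Gja1*, connexin 43 of the gap junctions, −1.68 ± 0.26 (SE), with −1.80 and −1.71 in run 2. *Camk2d*, a calcium-dependent kinase with no hydrophobic N-terminus, had −1.08 ± 0.32 (SE), −0.95 in run 2 and −0.18 in KO hearts, where it was not called. *Pln*, phospholamban, which holds back the calcium pump, had a ratio of 0.45 (adjusted p = 0.0523) and passed only in run 2, at 0.67.

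Extracellular matrix genes had the lowest median of the lists that were not markers of a cell type. Of 15 members 10 were lower and 2 higher, with a median of −1.22, and in run 2 11 were lower and 0 higher by edgeR, also at an unadjusted p under 0.05, with a median of −1.92. Of 26 members with a mean Ribo-seq count of at least 50, 19 were lower (73.1%) and 2 higher, and 21 were lower in run 2. The 2 that were higher were *Timp1* and *Vim*, which is on the list although it encodes vimentin, an intermediate filament protein of the cytoplasm. Their ratios were 4.07 and 1.68 in the summed runs and −0.73 and −0.46 in run 2, where neither was called. Collagen chains lay further down in run 2, *Col1a1* from −1.28 to −2.29 and *Col1a2* from −1.13 to −2.11.

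Chaperones went both ways. Of 17 members 3 were higher (17.6%) and 6 lower (35.3%), and 3 and 7 in run 2. Of 21 members with a mean Ribo-seq count of at least 50, 3 were higher and 4 lower, and 3 and 7 in run 2. *Hspa5*, the main Hsp70 of the endoplasmic reticulum, had 2543, 1722, 1605 and 1591 CPM of disomes and 4746 to 5817 CPM of footprints, a ratio of −1.44 ± 0.18 (SE, adjusted p = 0.000232), and the disulfide isomerases *Pdia3* and *Pdia6* had −1.03 and −0.85, the latter −0.72 and not called without Disome-seq number 1. *Cryab*, alpha B-crystallin, which protects desmin and the sarcomere, was higher by 0.80 ± 0.17 (SE) and *Hspa8*, the constitutive Hsp70 of the cytosol, by 0.77 ± 0.18 (SE). Of the words of *Hspa8*, 95.5% occur in another gene. *Hspb1*, another small heat shock protein, was higher by 0.60 ± 0.21 (SE), but at −0.32 once trends with length and GC content had been removed, and at 0.37 and not called without Disome-seq number 1. Of its words, 90.4% are shared. Other small heat shock proteins without a hydrophobic N-terminus were lower, *Hspb6* at −1.62 ± 0.29 (SE) and *Hspb7* at −1.27 ± 0.17 (SE).

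Contractile genes took a larger share of disomes than of footprints. The 24 sarcomere genes with a mean Ribo-seq count of at least 50 held 10.3% of disomes over the 3242 genes, from 8.07% to 11.8% in single libraries, and 7.49% of footprints, from 7.24% to 7.84%, without overlap, and 6 of them were higher (25.0%) and 2 lower (8.33%). Of the 19 members among the 639 genes 4 were higher (21.1%) and 3 lower (15.8%), near the shares of all 639, with a median of −0.05. In run 2 the counts were the same, with a median of 0.13. *Des*, the intermediate filament desmin, had 9259, 13347, 11067 and 11063 CPM of disomes and 5797 to 6979 CPM of footprints, a ratio of 0.79 ± 0.14 (SE, adjusted p = 0.0014) and of 0.97 in run 2. The ventricular light chain *Myl2* had 0.60 ± 0.14 (SE), though −0.14 with trends of length and GC content removed, and *Myl3* 0.62 ± 0.19 (SE). *Myl4*, the atrial light chain, was lower by 1.04 on the log2 scale and *Capza2*, which caps actin filaments, by 1.03. The last of the 3 was *Smpx*, a small protein of the costamere, at −0.99. *Tnnt2* (0.06), *Tnnc1* (−0.41), *Mybpc3* (−0.10), *Tcap* (−0.04), *Myom1* (0.16), *Myom2* (−0.15) and *Lmod2* (−0.22) did not pass the test.

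Respiratory chain genes went both ways. *Atp5b*, the catalytic beta subunit of ATP synthase, was the gene with the most disomes. It took 2.23%, 3.76%, 3.45% and 3.11% of Disome-seq counts and 1.18%, 1.27%, 1.35% and 1.35% of Ribo-seq counts, with no overlap, a ratio of 1.08 ± 0.16 (SE, adjusted p = 0.000676) and of 1.24 in run 2. *Atp5a1*, the alpha subunit of the same enzyme, was higher by 0.50 ± 0.14 (SE). *Cox7a1*, the muscle form of a subunit of cytochrome c oxidase, was higher by 1.04 ± 0.22 (SE), though its value was −0.08 with trends of length and GC content removed. Lower were *Ndufv3*, *Ndufb7*, *Ndufs7*, *Ndufb9* and *Ndufa11* of complex I, *Cyc1* of complex III, *Cox5b* of complex IV and *Atp5d* of ATP synthase, from −1.52 ± 0.21 (SE) for *Ndufv3* to −0.50 ± 0.15 (SE) for *Ndufa11*. *Cyc1*, cytochrome c1, had 1192, 1435, 1887 and 2025 CPM of disomes and 3462 to 3777 CPM of footprints. The 24 members thus held 3 higher (12.5%) and 8 lower (33.3%), and 5 higher and 6 lower in run 2, with medians of −0.27 and −0.04. In the fit of the genes with a mean Ribo-seq count of at least 50 there were 24 members. Of these, 5 were higher (20.8%) and 4 lower (16.7%), and 6 and 5 in run 2. Only 25 genes of the list were in the table, so both sets held nearly the same members. The median of the list was 0.01 in that fit, whose zero lies elsewhere, and the lean to lower calls was not seen there.

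Enzymes of glucose use leaned to higher calls, in run 2 over the 639 genes and in the fit of the 3242 genes, whose zero lies elsewhere. The list of glycolysis and the TCA cycle had 23 genes in the table, so both sets held nearly the same members. Its median was 0.49 in that fit. Of 22 members of glycolysis and the TCA cycle with a mean Ribo-seq count of at least 50, 11 were higher (50.0%) and 0 lower by edgeR (13 and 1 at an unadjusted p under 0.05), and in run 2 11 were higher and 1 lower. Of 21 members among the 639 genes 7 were higher (33.3%) and 4 lower (19%), against 22.5% and 19.6% of all 639, with a median of 0.28. In run 2, 9 of the 21 were higher and 2 lower, where 15.3% and 18.8% of all 639 were. *Mdh2*, mitochondrial malate dehydrogenase, had 10591, 17078, 12926 and 15257 CPM of disomes and 6939 to 7952 CPM of footprints, a ratio of 0.89 ± 0.16 (SE, adjusted p = 0.0014) and of 1.09 in run 2. *Cs*, citrate synthase, was higher by 0.56 and *Ldha*, lactate dehydrogenase A, by 0.96, the latter with 62% of its words shared, while *Eno1* and *Pgam1* were not called in run 2. *Sucla2* and *Idh3a* of the TCA cycle were lower in both, at −0.70 and −0.65, though not called in the fit of the 3242 genes. Of 13 genes of fatty acid use 2 were higher (15.4%) and 3 lower (23.1%), and 4 and 3 in run 2. Of 20 with a mean Ribo-seq count of at least 50, 4 were higher (20%) and 4 lower (20%), and 5 and 4 in run 2. *Hadhb*, a subunit of the mitochondrial trifunctional protein, had 21181, 31430, 31540 and 23934 CPM of disomes and 13154 to 14747 CPM of footprints, a ratio of 0.93 ± 0.15 (SE) and of 1.14 in run 2, with 95.3% of its words shared. *Acsl1*, which activates fatty acids, was at −0.92 ± 0.16 (SE).

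Factors that act on ribosomes were few among the genes. Of 3 members of the collision response, *Edf1*, which binds collided ribosomes, was higher by 1.04 ± 0.26 (SE, adjusted p = 0.00829), and at −0.09 with trends of length and GC content removed. *Rack1*, a protein of the small subunit at which collisions are sensed, was higher by 1.22 in the summed runs only, and *Map3k20*, the kinase ZAK, had −0.49 and did not pass. Of 17 members with a mean Ribo-seq count of at least 50, 2 were higher (11.8%) and 1 lower (5.88%), with a median of −0.22. Of all 3242 genes 7.5% were higher and 16.4% lower. In run 2, 1 of the 17 was higher and 0 were lower by edgeR (2 at an unadjusted p under 0.05). Of 10 translation factors 0 were higher and 2 lower (20.0%, against 19.6% of all 639) by edgeR, by DESeq2 and at an unadjusted p under 0.05. Of 25 with a mean Ribo-seq count of at least 50, 1 was higher and 1 lower, with a median of 0.28. The 2 lower genes of the 10 were *Eif4g1*, the scaffold of the cap complex, at −1.45 ± 0.27 (SE), and *Eif4a2*, at −0.67 ± 0.17 (SE). The latter was not called in run 2. Of 22 members of the ubiquitin and proteasome list 1 was higher and 2 lower, and as many in run 2, with 2 higher and 1 lower of the 24 with a mean Ribo-seq count of at least 50. In the summed runs over the 639 genes they were *Ubb* (0.40), *Psmc3* (−0.78) and *Trim63* (−0.64). *Ubb* shares 86.8% of its words with another gene.

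**Figure D5:**
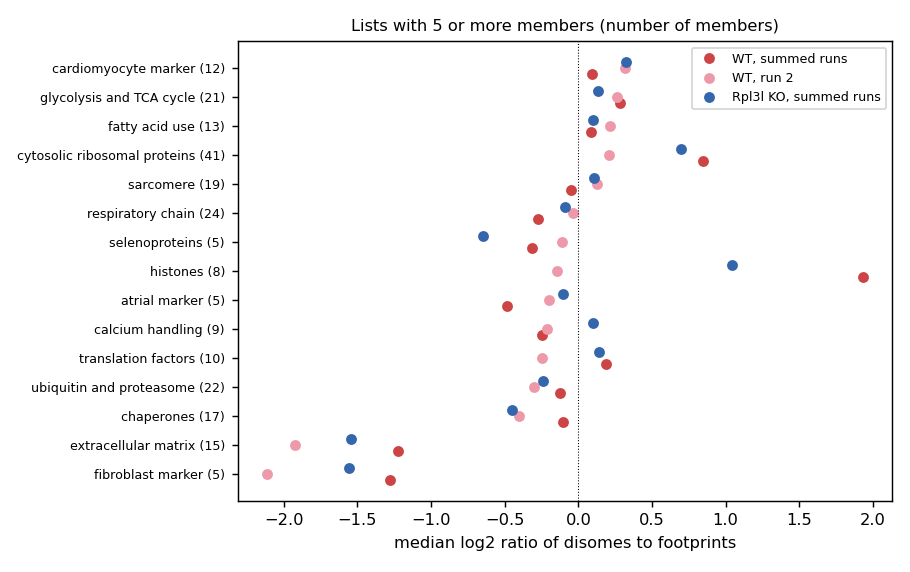
Median log2 ratio of disomes to footprints for the lists with 5 or more genes among the 639, with the number of members in brackets and the lists ordered by run 2. Red is WT with summed runs, pink WT run 2 and blue *Rpl3l* KO. Fibroblast markers and extracellular matrix lie lowest in all 3, and histones and cytosolic ribosomal proteins lie high in the summed runs and near 0 in run 2.

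Disomes were spread over fewer genes than footprints. The 100 most abundant genes of each library took 46.1% ± 4.52 (SD, n = 4) of Disome-seq counts, from 39.8% to 50.0%, and 36.1% ± 1.03 (SD, n = 4) of Ribo-seq counts, from 34.6% to 36.8%. The difference of 10.0 percentage points gave p = 0.0286 in a two-sided exact permutation test, the smallest that 4 against 4 libraries allow. In run 2 it was 14.9 points, with the same p in the exact test. Since a top list taken from a shallow library gathers chance counts, the 100 genes with the most footprints were also followed as a fixed set. They held 42.7% ± 6.51 of disomes and 35.97% ± 1.06 of footprints (SD, n = 4 each), p = 0.143 in the exact permutation test, so that the groups overlapped. In run 2 they held 48.5% ± 1.77 of disomes (SD, n = 4), and the exact permutation p was 0.0286.

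The level of translation and the length of the coding sequence went along with the ratio across genes, which are not replicates and share their libraries. From the lowest to the highest of 5 equal bins of footprints per kilobase, among genes with a mean Ribo-seq count of at least 50, the quotient of disome share to footprint share was 0.631, 0.735, 0.788, 0.826 and 1.13, and in run 2 it went from 0.546 to 1.17. By coding length it was 1.30 ± 0.08 (SD, n = 4) in the bin with 31 to 240 codons and 0.660 ± 0.058 (SD, n = 4) in that with 916 to 7406 codons, with 0.948, 1.10 and 0.83 in between, and in run 2 the outer bins had 1.27 and 0.666. By GC content of the transcript it was 0.874, 1.00, 1.16, 1.07 and 0.845, and in run 2 0.884, 1.00, 1.19, 1.09 and 0.797. By translation efficiency, footprints per mRNA read, it went from 1.23 in the lowest bin to 0.751 in the highest, and from 1.26 to 0.732 in run 2. Footprints divide the quotient and are the numerator of translation efficiency. Such a fall can arise from this shared term alone, and its part was not tested. Over the 639 genes, Spearman's rho of the ratio was −0.37 with coding length (613 genes) and −0.27 in run 2. With footprints per kilobase it was −0.17 (616 genes), opposite to the rise over the bins, and −0.04 in run 2. Of the 636 genes in the lowest bin of footprints per kilobase, 1 was among the 639. Genes with few footprints entered the 639 only through many disomes, and each rho over these genes carries that choice.

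Runs of a single residue in the protein were also counted, and their genes are set beside the 22.5% higher and 19.6% lower of all 639 genes. A run of 3 prolines, which slows peptide bond formation, occurs in 99 of the 628 proteins with a complete frame. Of these 99 genes 16 were higher (16.2%) and 26 lower (26.3%), with a median of −0.12, and in run 2 13 were higher and 23 lower. A run of 4 lysines occurs in 20, of which 0 were higher by edgeR (2 at an unadjusted p under 0.05) and 6 lower in the summed runs, with 0 and 5 called in run 2 (again 2 higher at an unadjusted p under 0.05). A run of 3 aspartates occurs in 66, with 6 higher (9.09%) and 20 lower (30.3%), and 3 and 18 in run 2. One of 3 alanines occurs in 187, with 24 higher (12.8%) and 45 lower (24.1%), and as many in run 2. Of the shares of the 20 residues in the protein, that of lysine had the largest Spearman's rho with the ratio across the 628 genes, 0.30, and 0.19 in run 2. This describes genes that share their libraries and were chosen by their disomes. Long proteins hold more such runs, and the part of length in these counts was not tested.

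The same ratio was measured in the *Rpl3l* KO hearts, whose libraries had no part in the choice of the genes. There 149 genes (23.3%) were higher and 135 (21.1%) lower. Of the 144 genes called higher in the WT heart 111 were higher there too, and of the 125 called lower 89 were lower, with 0 genes called in opposite directions. With run 2 alone in KO hearts, in which 124 genes (19.4%) were higher and 120 (18.8%) lower, 61 of the 74 genes higher in both WT sets were higher and 69 of the 101 were lower. Across the 639 genes the ratios of the genotypes had a Spearman's rho of 0.84. The test of the difference itself, the interaction of genotype and assay, called 0 genes (0%) by edgeR, with 56 genes (8.76%) at an unadjusted p under 0.05, and 14 by DESeq2. With run 2 alone it called 0, with 47 at an unadjusted p under 0.05.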

How the data were processed

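Disome-seq (8 columns per genotype, 2 for each of 4 numbers) and Ribo-seq (4 per genotype) of the WT and *Rpl3l* KO heart were used, with control C2C12 Ribo-seq and WT RNA-seq as references, in all 31 of 50 columns. The authors deposited read counts per transcript, without normalization. They trimmed adaptors (cutadapt), removed low-quality reads (FASTX-Toolkit) and rRNA (STAR) and mapped with STAR to GRCm38.p6 and mm10, keeping reads that fit several places. UMI-tools collapsed PCR copies and featureCounts counted the rest. Versions and strand setting are not given in the sources used here.

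Of 47754 lines, 1 of 2 identical lines was used for each of 23877 transcripts. GENCODE M21 matched 23662 of them, and since all of these lie on the plus strand, minus-strand genes are not analysed here. For each gene the transcript with the highest mean WT Ribo-seq count was taken. Both columns of a Disome-seq number were summed. The sources do not say whether the columns are 2 runs of 1 library, and each number was counted as 1 replicate.

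EdgeR 4.0.16 (R 4.3.3) fitted the 639 genes by its quasi-likelihood method, with assay as the only term, TMM factors over the 8 libraries and Benjamini-Hochberg adjustment. The fit was tested on simulated data. Single values were compared by exact permutation tests (SciPy 1.17.1).

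Members and lists were chosen with earlier results of these data known, and no list was tested as a set. Named are the 10 highest and 10 lowest called genes with a mean of at least 50 counts and no overlap between assays, the 10 genes with the most disomes, the 3 highest and 3 lowest of each list (all of the sarcomere and programmed elongation lists) and *Rpl3l*. Others are called genes of a list, or are said to have been chosen after their values were seen. Alternatives were library totals, DESeq2 1.42.0, other minimum counts, all transcripts, each run alone, trends with footprint level or with length and GC content removed, the replicate number as a block, and each library left out. Run 2 combined with other filters, and genes with few shared words, were added after the data had been seen.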

Additional observations from a re-analysis of the deposited data

Results flagged for a closer look

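Among 97 groups of 4 WT values, 8 held a library that stood apart from the other 3 by Dixon's criterion, and chance gives about 1 in 20. *Hist1h4m* was lowest in Ribo-seq replicate 1, at 176 CPM against 205 to 210 in the others. *Hba-a2* was lowest in Disome-seq replicate 1, at 636 CPM against 1650 to 1774. *Tm9sf2* was lowest in Disome-seq replicate 4, at 145 CPM against 451 to 502, and this rests on 2 counts. The 10 most abundant genes took the smallest share in Ribo-seq replicate 1, 9.72% against 10.6% in the others. In run 2 of Disome-seq, replicate 4 had the lowest share on its 100 most abundant genes, 49.5% against 51.3% to 51.6%, and the highest share on the 402 genes high in C2C12 cells, 4.12% against 0.903% to 1.27%. In summed Disome-seq, replicate 1 had the lowest median ratio of the genes of fatty acid use, −0.31 against 0.15 to 0.23, and the highest median of the fibroblast markers, −0.97 against −1.95 to −1.85.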

How the results depend on the processing

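Of the 269 calls (144 higher, 125 lower), the number depended most on which genes were tested. It was 65 (34 higher, 31 lower) of 114 genes with a mean disome count of at least 50, 1109 (277, 832) with a total of at least 10 counts, 774 (243, 531) with a mean Ribo-seq count of at least 50, 590 (310, 280) with all transcripts, and 169 (91, 78) with at most 10% of words shared. Run 2 gave 152 (72, 80) with at most 10% of words shared and 763 (144, 619) with a mean Ribo-seq count of at least 50. With library totals the median of the 639 ratios moved from 0.06 to −0.03, and with 2-fold changes asked for as well, the split of higher and lower calls was 101 and 58, but 50 and 64 in run 2. Leaving out 1 library gave 203 to 329 calls. The higher calls rest in part on run 1, and disome depth limits genes near 10 counts.

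With the replicate number as a block 225 genes were called (121 higher, 104 lower). The number was not taken as a pairing: the deviations of same-numbered Disome-seq and Ribo-seq libraries correlated by 0.27, 0.08, 0.31 and 0.13, although each Disome-seq library correlated best with its own number, a hint from the data only. The block called 0 genes for the interaction, which had 14 calls by DESeq2 and 0 to 3 without 1 library (3 without WT Disome-seq replicate 3, *Csnk2a1* at 1.23, *Fscn1* at −1.87 and *Hist1h2bc* at −1.53).

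The median difference between genes with a hydrophobic N-terminus and with neither feature, −1.02 over the 639 genes, was −0.50 with a mean disome count of at least 50. Of 13 lists, 7 kept the sign of their median with that minimum, and 8 in run 2 both with at most 10% of words shared and with a mean Ribo-seq count of at least 50. The excess on the 100 most abundant genes was 8.74 to 12.1 points with 1 library left out, at an exact permutation p of 0.0571, the smallest that 3 against 4 allow.

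Of 104 named genes, 19 values changed sign. In run 2 these were *Lgals3* (−0.38), *Vim* (−0.46), *Timp1* (−0.73) and *H2afx* (−0.86). Without replicate 4 in run 2 they were *Hist1h3d* (−0.43), *Lgals3* (−1.11), *Hist1h4m* (−0.53), *Vim* (−0.84), *Timp1* (−6.73) and *H2afx* (−0.60). In run 2 with at most 10% of words shared they were *Lgals3* (−0.22), *Vim* (−0.29) and *Timp1* (−0.56), and in run 2 with a mean Ribo-seq count of at least 50 *Lgals3* (−0.19) and *Vim* (−0.27). With trends of length and GC content removed they were *Myl2* (−0.14), *Cox7a1* (−0.080), *Edf1* (−0.093) and *Hspb1* (−0.32). Of the other values, 2118 stayed on their side of the threshold, 143 lost it and 74 gained it. The cause of these changes was not tested.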

Other observations

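Some genes entered the comparison by their disomes alone. *Olfr1359*, an olfactory receptor gene, had 18, 12, 6 and 8 disome counts in the 4 WT numbers and 1, 0, 0 and 0 Ribo-seq counts, and 93.0% of its 28-base words occur in another gene. *Igfbp2*, *Rrm2*, *S100a4* and several histone genes, with mean Ribo-seq counts of 6.75, 16.75, 32.5 and 19.5 to 43.25, had mean disome counts of 12.5, 15.25, 53 and 11 to 61.75. At the other end, 64 of the 3242 genes with a mean Ribo-seq count of at least 50 had no disome count in any WT library, and 2618 lay under the minimum of 10 disomes. These values carry no test.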
